A study of Mus musculus with 8 samples.

Results

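The genes described here are 7 members of the renin-angiotensin system and the renin cell, out of 20887 genes named on the array: Ren1, Agt, Ace, Agtr1a, Agtr2, Akr1b7 and Atp6ap2. They were chosen by function and found through the transcript accession that the scanner output gives for each probe. Each of the 7 had 1 probe printed in 1 spot, and all 7 passed the filter on dim probes and entered the test with the other genes, 13987 in all. Agtr2 and Atp6ap2 lie on the X chromosome, Ren1 on chromosome 1, Akr1b7 on chromosome 6, Agt on chromosome 8, Ace on chromosome 11 and Agtr1a on chromosome 13.

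Whole kidneys of C57BL/6 mouse embryos at embryonic day 16.5 were compared on 2-colour Agilent arrays, with 4 wildtype kidney pairs (WT) and 4 pairs with the Dot1 gene conditionally deleted in Six2-positive nephron progenitors (KO; the labels give this genotype as DOT1-null and that of WT as control). Dot1l encodes the methyltransferase that acts on lysine of histone H3 in the nucleosome core. The labels do not name the Cre line. RNA of each kidney pair was labelled red (Cy5) and hybridised against RNA of WT1 labelled green (Cy3), so a log2 ratio of 0 is the level of WT1. The dye assignment was the same on every array, and on the first WT array both colours came from WT1.

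Renin, an aspartyl protease, cuts angiotensinogen (Agt) to angiotensin I, and angiotensin-converting enzyme (Ace) trims that to angiotensin II, which acts through the receptors Agtr1a and Agtr2. In the kidney, renin is made by juxtaglomerular cells, which in the fetus also line the growing arterioles and which descend from Foxd1-positive stroma, not from the Six2-positive nephron lineage. Mice that lack angiotensinogen, the converting enzyme or type 1 receptors have malformed kidney papillae and thickened vessels. C57BL/6 mice carry a single renin gene, Ren1. Akr1b7, an aldo-keto reductase, is a second product of renin cells and is also abundant in the adrenal cortex. Atp6ap2 binds prorenin and is an accessory protein of the vacuolar proton pump.

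The promoters of Ren1 and Akr1b7 are shown because these are the 2 products of the renin cell among the 7 genes. Each run is the 250 bases before the transcription start, 5′ to 3′ on the coding strand, from RefSeq on GRCm38.p6. It covers chr1:133350424-133350673 (plus strand) for Ren1 and chr6:34412112-34412361 (plus strand) for Akr1b7. Capitals mark the letters TATAAA.
Ren1: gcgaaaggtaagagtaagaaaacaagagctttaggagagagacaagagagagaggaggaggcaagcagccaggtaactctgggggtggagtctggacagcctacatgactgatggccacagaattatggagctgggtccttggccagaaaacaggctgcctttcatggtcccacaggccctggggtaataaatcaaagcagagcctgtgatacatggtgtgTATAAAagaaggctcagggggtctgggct
Akr1b7: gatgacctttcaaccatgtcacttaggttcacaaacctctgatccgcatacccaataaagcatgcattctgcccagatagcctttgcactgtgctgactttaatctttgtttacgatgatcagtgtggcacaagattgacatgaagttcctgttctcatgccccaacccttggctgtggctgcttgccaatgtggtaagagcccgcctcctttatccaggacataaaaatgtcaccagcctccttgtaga
The Ren1 window held TATAAA once, starting 29 bases before the transcription start, and the Akr1b7 window held it on neither strand. Of 32851 mouse promoter windows of this length, 12.4% held TATAAA on either strand. Neither window held TGACG, the core letters of a cAMP response element, on either strand, against 17.8% of all windows. These letters describe the windows only. A window was found for 6 of the 7 genes.

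Arrays WT1 and KO1 stood apart before any comparison of genotypes. The median red signal of the negative-control spots was 1361 on WT1 and 478 on KO1, against 58 to 61 on the other 6 arrays. The green channel holds the same RNA everywhere, and its raw log2 signal on WT1 had a median correlation of 0.562 with that on the 6 other arrays, against 0.904 for KO1. Each result on the 7 genes is therefore also given without WT1 and KO1, with 3 arrays per group. For the gene lists the values without these arrays are given where a call differs, and the other calls of named list genes were the same. The male transcript Ddx3y was more than 1 log2 unit above the reference on 1 of 4 WT arrays (WT2) and on 4 of 4 KO arrays, so sex moved with genotype. All arrays lay on 1 slide, on which each row held 1 group, so row and genotype cannot be told apart. The Dot1l probe did not differ between the groups by more than their spread (log2 difference 0.03 ± 0.08, SE, n = 4 arrays a group, limma adjusted p = 0.924). Its place relative to the deleted part was not given in the sources used here, so it checks no label.

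None of the 7 genes differed between KO and WT at an adjusted p below 0.05 (limma, Benjamini-Hochberg over all genes tested), while 2.12% of all tested genes did. At an unadjusted p below 0.05 the count was 3 of 7, namely Akr1b7, Atp6ap2 and Agt, against 14.5% of all tested genes. Agt passed the filter on dim probes through the 4 KO arrays and WT1, so a higher KO value of Agt was favoured by the filter and is no support. Log2 means were lower in KO for Ren1, Agtr2 and Akr1b7 and higher for the other 4. The median difference of the 7 genes was 0.18 on the log2 scale, and that of all tested genes was 0.03. For 0 of 7 genes did the ratios of the 4 WT and 4 KO arrays not overlap, against 9.27% of all tested genes (6.81% with KO above and 2.46% with KO below). Without WT1 and KO1, Akr1b7 alone was called, 1 of 7 genes against 1.76% of all, and it was lower in KO. The groups then did not overlap for 2 of the 7, Agt with KO above and Akr1b7 with KO below, against 20.6% of all genes (7.85% with KO below).

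**Figure D1:**
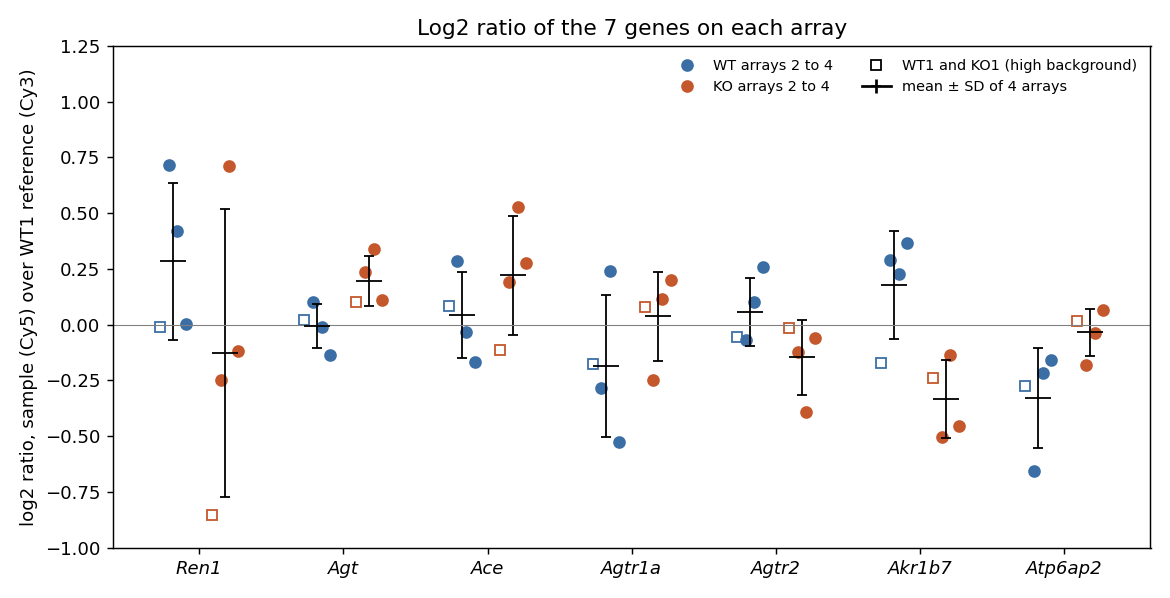
Log2 ratio of the sample (red) over the WT1 reference (green) for the 7 genes, with a point per array; open squares are the high-background arrays WT1 and KO1, and bars are the mean and SD of 4 arrays. Ren1 spans 1.57 log2 units over the 8 arrays, and the 4 KO points of Akr1b7 lie at or below -0.13 while WT2, WT3 and WT4 lie at or above 0.23.

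Akr1b7, the aldo-keto reductase of renin cells, had log2 ratios of -0.17, 0.29, 0.23 and 0.37 on WT1, WT2, WT3 and WT4, and of -0.24, -0.50, -0.13 and -0.46 on KO1, KO2, KO3 and KO4. Every KO array was below 0, and the groups overlapped only because WT1, the reference RNA against itself, lay between KO1 and KO3. The KO mean was lower by a log2 difference of -0.51 ± 0.13 (SE, n = 4 per group; 95% interval -0.79 to -0.23), a WT level 1.43-fold that of KO, and the limma adjusted p was 0.0615. Without WT1 and KO1 the WT mean was 0.29 ± 0.07 (SD, n = 3) and the KO mean -0.36 ± 0.20 (SD, n = 3). That difference, -0.66 ± 0.11 (SE; 95% interval -0.91 to -0.40), passed the test with a limma adjusted p of 0.0307, and WT was 1.58-fold KO. The call turned on array WT1: leaving out only WT1 gave -0.63 with a limma adjusted p of 0.0265, and leaving out any 1 array gave adjusted p-values between 0.0265 and 0.204. In whole kidney, a lower level may be fewer cells of a type or less RNA per cell, and these cannot be told apart. On the only male WT array, WT2, the ratio was 0.29, between those of WT3 and WT4. With sex as a model term the Akr1b7 difference was -0.62 (limma adjusted p = 0.292).

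The 2 colours of the Akr1b7 spot were also read separately. Raw red signals were 8582, 3151, 2970 and 4872 on WT1 to WT4 and 3867, 2050, 1532 and 2198 on KO1 to KO4, and green signals on the 6 arrays of low background were between 1010 and 1223. Among those 6 arrays the sample colour was lower on every KO array than on every WT array. The reference colour was also lower on every KO array (1010 to 1064 against 1120 to 1223), though over a much narrower range. Raw signals do not allow for the overall brightness of an array. Quantile-normalized red alone over these arrays gave a log2 difference of -0.62 ± 0.11 (SE, n = 3 arrays a group, limma adjusted p = 0.0420), and green alone gave 0.07 ± 0.04 (limma adjusted p = 0.463). Red alone over all 8 arrays reversed the sign, to 0.17.

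Akr1b7 is also a product of the adrenal cortex, so markers of that tissue were read beside it. Of 12 adrenal cortex markers, 6 were tested and 0 passed (limma; 0 at an unadjusted p below 0.05), with a median log2 difference of 0.03. The steroidogenic genes Star, Cyp11a1, Cyp11b1, Cyp11b2 and Hsd3b1 were not well above background on any of the 6 arrays of low background. Mc2r, the corticotropin receptor, differed by -0.20 ± 0.10 (SE, limma adjusted p = 0.371), and Cyp17a1, a steroid hydroxylase, by 0.09 ± 0.09 (SE, limma adjusted p = 0.721). Summed normalized red signal of the adrenal list was 10995 to 12541 on WT2 to WT4 and 11302 to 12538 on KO2 to KO4, but most of it was Fdx1, an electron carrier that many tissues express. Without Fdx1 the sum was 1160 to 1290 on WT2 to WT4 and 1161 to 1271 on KO2 to KO4, so the groups overlapped. None of the 3 relatives of Akr1b7 on the same chromosome passed the test (limma), and 2 had an unadjusted p below 0.05. Akr1b8 differed by 0.39 ± 0.10 on the log2 scale (SE, limma adjusted p = 0.0677), with every KO array above every WT array, and Akr1b10 by 0.24 ± 0.09 (limma adjusted p = 0.220). Akr1b3, the mouse aldose reductase, differed by -0.02. The means of Akr1b7 and Akr1b8 thus lay on opposite sides of 0. Binding of one relative's RNA to the probe of another was not tested.

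Ren1, renin itself, had log2 ratios of -0.01, 0.72, 0.42 and 0.01 on WT1 to WT4 and of -0.85, -0.25, 0.71 and -0.12 on KO1 to KO4. KO1, KO2 and KO4 lay below every WT array, with KO1 the lowest of all. The groups overlapped through KO3 alone, which was nearly as high as the highest WT array. The WT mean was 0.28 ± 0.35 (SD, n = 4) and the KO mean -0.13 ± 0.65 (SD, n = 4). The difference of -0.41 ± 0.27 (SE; 95% interval -0.99 to 0.17) did not pass (limma adjusted p = 0.535). Without WT1 and KO1 it was -0.26 ± 0.26 (SE, limma adjusted p = 0.683). Single arrays moved it strongly: it was -0.17 without KO1 and -0.69 without KO3, with limma adjusted p-values between 0.125 and 0.804 over all 8 omissions. With sex as a model term the Ren1 difference was -0.84 (limma adjusted p = 0.439). At this spread neither a change of renin nor its absence was shown.

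Raw Ren1 signals showed where the array differences lay. Red was 13837, 5128, 4293 and 4370 on WT1 to WT4 and 2737, 2928, 3627 and 3351 on KO1 to KO4, and green on the 6 arrays of low background was between 1206 and 1511. Before any normalization, which does not allow for the overall brightness of an array, every WT array was thus brighter than every KO array in the sample colour. After quantile normalization of the red channel of the 6 arrays the log2 difference was -0.18 ± 0.29 (SE, n = 3 arrays a group, limma adjusted p = 0.828). The log2 ratios of Ren1 and Akr1b7 did not share an order among the arrays: KO3 was the highest KO array for both genes, but KO1 was the lowest for Ren1 and KO2 for Akr1b7.

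**Figure D2:**
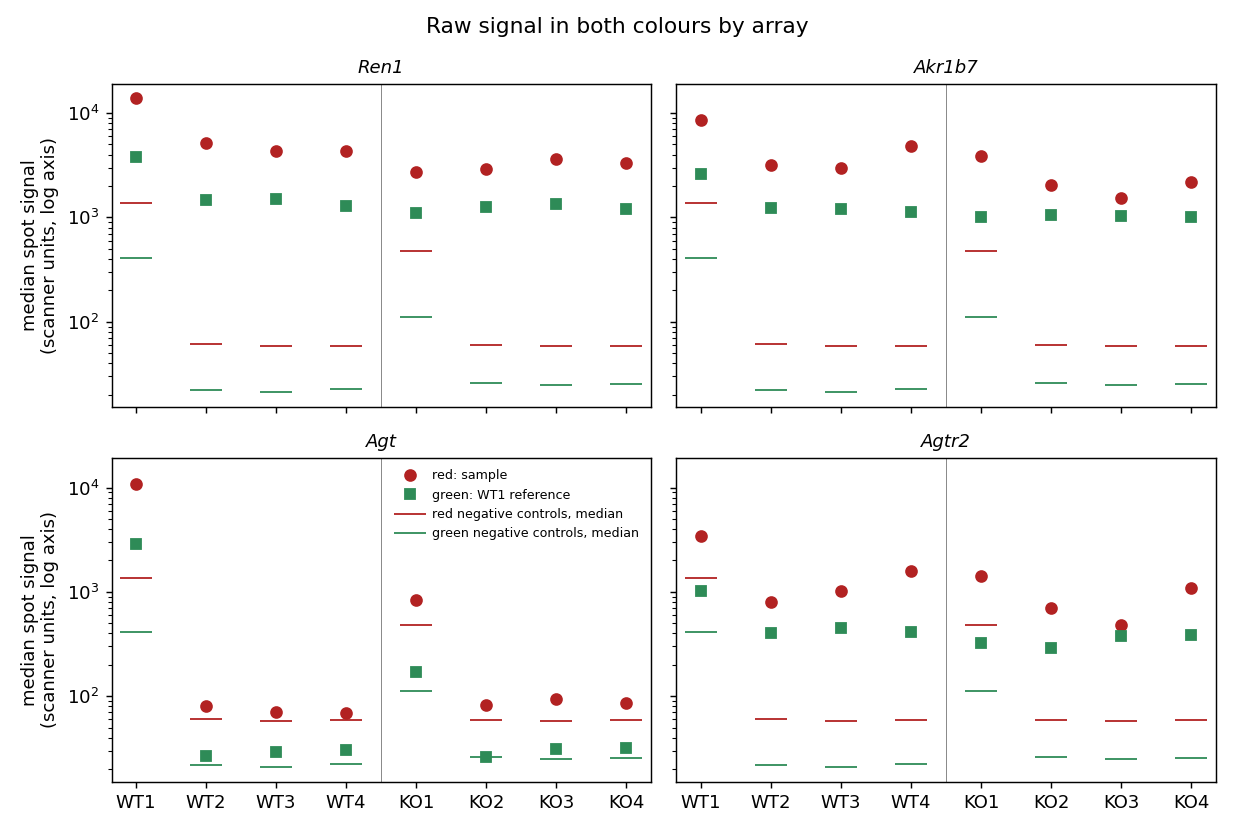
Median spot signal (scanner units, log axis) of Ren1, Akr1b7, Agt and Agtr2 on each array, red circles for the sample and green squares for the WT1 reference, with short lines at the median of the negative-control spots. The lines of WT1 and KO1 lie far above those of the other arrays, and the Agt signals of the other arrays lie close to them.

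Agt, the renin substrate, made mainly by liver in the adult, was near the detection limit. Its red signal was well above background on 1 of 4 WT arrays, which was WT1, and on 4 of 4 KO arrays. Raw red signals were 80, 70 and 69 on WT2, WT3 and WT4 and 83, 95 and 86 on KO2, KO3 and KO4, beside negative-control medians of 58 to 61. The red signal of Agt was 10806 on WT1 and 831 on KO1, the arrays of high background. Log2 ratios were 0.02, 0.10, -0.01 and -0.14 on WT1 to WT4 and 0.10, 0.24, 0.34 and 0.11 on KO1 to KO4, and the highest WT and lowest KO value met at 0.10. The difference was 0.20 ± 0.09 (SE, n = 4 arrays a group; limma adjusted p = 0.322) and, without WT1 and KO1, 0.24 ± 0.10 (SE, limma adjusted p = 0.310). Without those arrays no WT array was well above background. The mean normalized log2 red signal was 7.06 on WT2 to WT4 and 7.30 on KO2 to KO4, so no rise was shown.

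Liver markers were read beside Agt, since liver is its main source. Of 10 liver markers, 5 were tested, and Afp, the fetal albumin relative, rose by 0.89 ± 0.11 (log2, SE, limma adjusted p = 0.0029) while Fgb, the fibrinogen beta chain, fell by 0.50 on the log2 scale (SE 0.10, limma adjusted p = 0.0232). Alb, Apoa1 and Apob were not well above background on any of the 6 arrays of low background. The summed normalized red signal of the list was 8616 to 11041 on WT2 to WT4 and 15008 to 17694 on KO2 to KO4, without overlap. Afp made up most of this sum, and without it the range was 1756 to 1949 on WT2 to WT4 and 2025 to 2625 on KO2 to KO4. Ttr, the thyroxine carrier, differed by 0.99 ± 0.25 (log2, SE, limma adjusted p = 0.0642) and passed without WT1 and KO1 (1.29, limma adjusted p = 0.0454). Without those arrays 2 liver markers thus rose and 1, Fgb, fell (-0.54, limma adjusted p = 0.037), so the list had no single direction. The part of these genes in the Agt ratio was not tested.

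Ace, the converting enzyme, sits on endothelium and on the proximal tubule brush border. Its log2 ratios were 0.08, 0.29, -0.03 and -0.17 on WT1 to WT4 and -0.11, 0.19, 0.53 and 0.28 on KO1 to KO4. KO1 was below every WT array except WT4, and KO3 was the highest of all 8. The difference of 0.18 ± 0.14 (SE, n = 4 per group; 95% interval -0.12 to 0.47) did not pass (limma adjusted p = 0.618). Without WT1 and KO1 it was 0.30 ± 0.14 (SE, limma adjusted p = 0.352). Raw red was 669, 532 and 590 on WT2 to WT4 and 653, 652 and 777 on KO2 to KO4. Red alone over these 6 arrays differed by 0.44 ± 0.19 (SE, limma adjusted p = 0.348) and green alone by 0.12 ± 0.06 (SE, limma adjusted p = 0.330). With sex as a model term the ratio difference was -0.07 (limma adjusted p = 0.931), so the sign of the Ace difference was not settled.

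The cells that carry Ace were followed through their own markers. All 16 proximal tubule markers were tested and had positive log2 differences, with a median of 0.49, but 0 passed (limma) and 10 had an unadjusted p below 0.05. Slc27a2, a fatty acid transporter, differed by 0.77 ± 0.19 (SE, limma adjusted p = 0.0662), and Slc22a6, the organic anion transporter of the basal membrane, by 0.77 ± 0.22 (SE, limma adjusted p = 0.104). The arrays of a group were far apart. The median log2 ratio of the list was -0.15, -0.40, -0.24 and -0.86 on WT1 to WT4. It was -0.14, -0.18, 0.71 and 0.14 on KO1 to KO4, so KO1 was close to WT1 and KO2 lay below WT1. The summed red signal of this list was 59350 to 85498 on WT2 to WT4 and 83518 to 171291 on KO2 to KO4, and these ranges overlapped. All 11 endothelial markers were tested and 0 passed (limma; 1 at an unadjusted p below 0.05), with a median of 0.04. Cdh5, the cadherin of endothelial junctions, differed by 0.37 ± 0.10 (SE, limma adjusted p = 0.101) and Plvap, a protein of endothelial fenestrae, by 0.13 ± 0.09 (SE, limma adjusted p = 0.557). The part of either cell type in the Ace values was not tested.

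Agtr1a, the type 1 receptor that mediates most effects of angiotensin II, had log2 ratios of -0.18, -0.28, 0.24 and -0.53 on WT1 to WT4 and of 0.08, -0.25, 0.12 and 0.20 on KO1 to KO4. WT3 was the highest array of all and WT4 the lowest. The difference was 0.22 ± 0.15 (SE, n = 4 per group; 95% interval -0.10 to 0.55; limma adjusted p = 0.554), and 0.21 ± 0.19 without WT1 and KO1 (SE, limma adjusted p = 0.666). Its red signal was not well above background on WT1. In the reference colour, which held the same RNA on all arrays, raw green was 500, 444 and 474 on WT2 to WT4 and 348, 327 and 317 on KO2 to KO4. Normalized green alone differed by -0.24 ± 0.06 (SE, n = 3 arrays a group, limma adjusted p = 0.156) without overlap, and red alone by -0.07 ± 0.15 (SE, limma adjusted p = 0.870). The positive ratio of Agtr1a in KO thus stood beside a lower reference signal and not beside a higher sample signal.

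Agtr2, the type 2 receptor, is highly expressed in fetal mesenchyme and is X-linked. Its log2 ratios were -0.06, -0.07, 0.10 and 0.26 on WT1 to WT4 and -0.02, -0.12, -0.39 and -0.06 on KO1 to KO4. The ranges overlapped between -0.07 and -0.02, where WT1, WT2, KO1 and KO4 lay, and only WT3 and WT4 were above 0. The difference of -0.21 ± 0.11 (SE, n = 4 per group; 95% interval -0.44 to 0.029) did not pass (limma adjusted p = 0.419). Without WT1 and KO1 it was -0.29 ± 0.12 (SE, limma adjusted p = 0.316), with red alone at -0.37 ± 0.17 (SE, limma adjusted p = 0.385) and green alone at -0.03 ± 0.09 (SE, limma adjusted p = 0.898). Raw red was 799, 1025 and 1578 on WT2 to WT4 and 697, 481 and 1080 on KO2 to KO4, so KO4 lay above 2 WT arrays. Its red signal was also not well above background on WT1. On WT2, the only male WT array, the ratio of -0.07 was the lowest of the WT arrays. With sex as a model term the Agtr2 difference was -0.08 (limma adjusted p = 0.893). The mean differences of the 2 receptors had opposite signs, and a difference between them was not tested.

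Atp6ap2, the prorenin receptor, had log2 ratios of -0.28, -0.66, -0.22 and -0.16 on WT1 to WT4 and of 0.02, -0.18, -0.04 and 0.06 on KO1 to KO4. Among the KO arrays, KO2 lay below WT4, which was the highest WT array, and otherwise the KO arrays were higher. The difference was 0.29 ± 0.11 (SE, n = 4 per group; 95% interval 0.048 to 0.54; limma adjusted p = 0.241), and 0.29 ± 0.14 without WT1 and KO1 (SE, limma adjusted p = 0.374). Raw green, of the same RNA throughout, was 224, 227 and 213 on WT2 to WT4 and 161, 176 and 170 on KO2 to KO4. Normalized green alone differed by -0.14 ± 0.04 (SE, n = 3 arrays a group, limma adjusted p = 0.154) without overlap, and red alone by 0.11 ± 0.16 (SE, limma adjusted p = 0.799). WT2, the only male WT array, had the lowest ratio, and with sex as a model term the difference was 0.62 (limma adjusted p = 0.138).

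**Figure D3:**
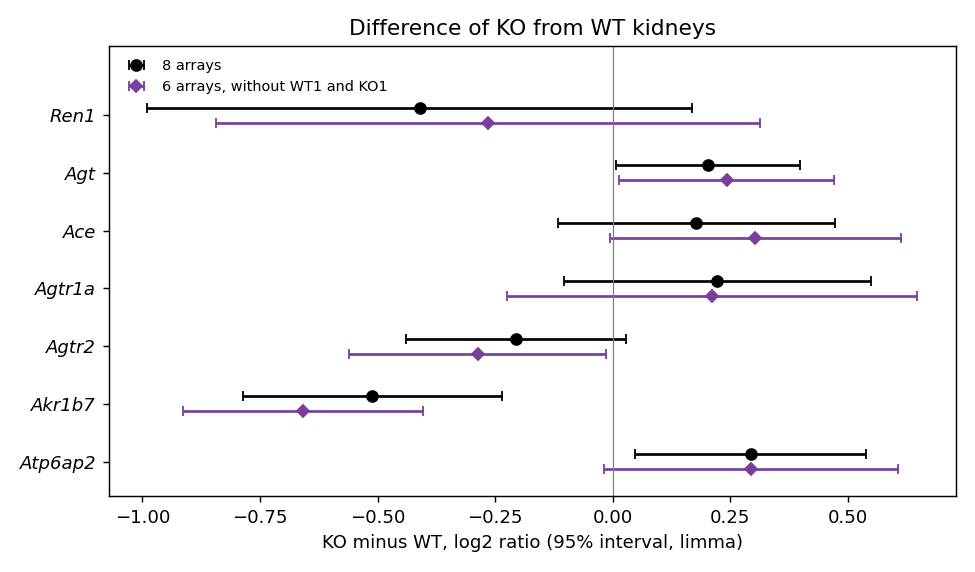
KO minus WT difference of the log2 ratio with its 95% interval from limma, for the 7 genes with all 8 arrays and without WT1 and KO1; the vertical line marks 0. The Akr1b7 intervals lie wholly below 0 in both. Those of Agt, a probe near background whose KO value the filter favoured, lie just above 0 in both. The interval of Agtr2 excludes 0 only without WT1 and KO1, and that of Atp6ap2 only with all 8 arrays. The Ren1 intervals are the widest and span 0.

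The reference colour gave a measure of what arrays alone can add. In green alone over the 6 arrays of low background, 4 of the 7 genes (Ace and Akr1b7 with KO above, Agtr1a and Atp6ap2 with KO below) had groups that did not overlap, against 23.5% of all genes, although the RNA was the same. None of the 7 was called there, and 0 of all tested genes were (limma; 2415 at an unadjusted p below 0.05). The largest green differences among the 7 were those of Agtr1a and Atp6ap2, given above, and the median size of the green difference over all genes was 0.0529 on the log2 scale. Red alone called 0.994% of all genes over the 6 arrays, and 1 of the 7, Akr1b7, whose red groups did not overlap, as was the case for 19.6% of all genes.

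**Figure D4:**
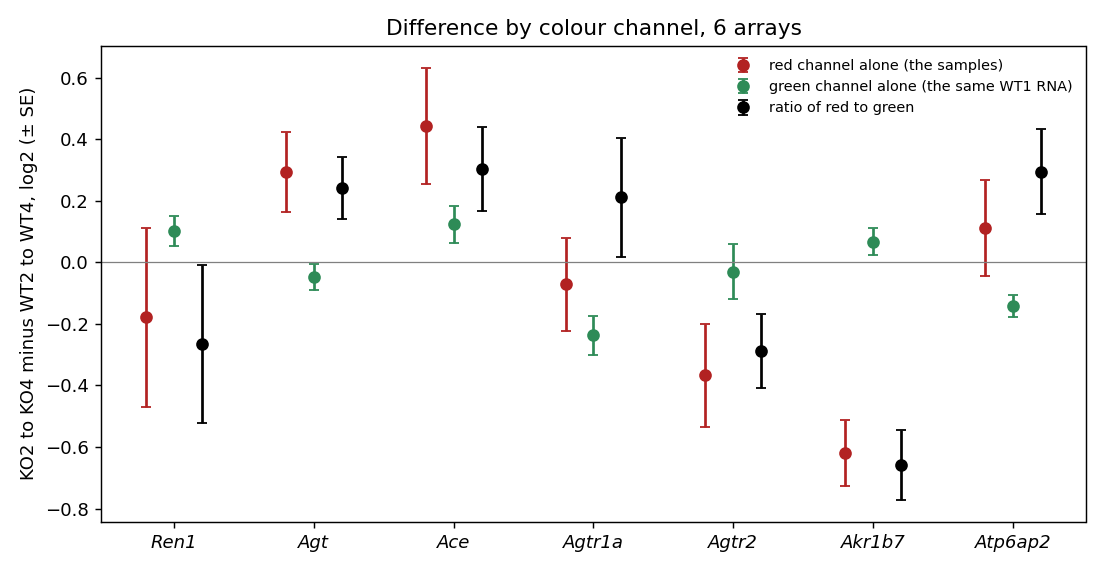
KO minus WT difference on the log2 scale over the 6 arrays of low background, for the ratio, the red channel (sample) and the green channel (same reference RNA) of each of the 7 genes, with SE. Green lies near 0 for Akr1b7, whose red and ratio differences are close to each other, and below 0 for Agtr1a and Atp6ap2.

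Other genes that make, break or sense angiotensins were read as a list of 23, of which 18 were tested. Klk1, the tissue kallikrein that releases kinins, rose by 1.61 ± 0.29 (log2, SE, limma adjusted p = 0.0166), and its values on KO1 to KO4 (0.35, 1.41, 2.04 and 0.98) were all above the highest WT value of 0.08. It was the only 1 of the 18 to pass, 0 fell, and 5 had an unadjusted p below 0.05. The background was 1.57% called higher and 0.543% called lower. The median log2 difference of the list was 0.09. Mas1, Mrgprd, Cma1, Mcpt4 and Ctsg were not well above background on any of the 6 arrays of low background.

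Genes that control renin release were listed as 22, and 16 were tested. None passed (limma; 3 at an unadjusted p below 0.05), and their median log2 difference was 0.11. Gja5, the connexin of juxtaglomerular cells and arteriolar endothelium, had ratios of -0.10, 0.11, -0.17 and -0.01 on WT1 to WT4 and of -0.46, -0.29, -0.19 and -0.29 on KO1 to KO4. Every KO array was below every WT array, with a difference of -0.26 ± 0.09 (SE, limma adjusted p = 0.194). Groups did not overlap for 3 of the 16 genes, 2 with KO above and 1, Gja5, with KO below. Over all tested genes this share was 9.27% (6.81% with KO above and 2.46% with KO below). Another Gja5 probe differed by 0.02 and was not well above background on any of the 6 arrays of low background. Ptgir, the prostacyclin receptor, differed by -0.27 ± 0.11 (SE, limma adjusted p = 0.265). Adrb1, the beta-adrenergic receptor that drives renin release, was not well above background on any of the 6 arrays of low background.

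Mural cells and stroma, the relatives of the renin cell, were read next. Of 16 mural cell markers 15 were tested, 0 passed (limma; 1 at an unadjusted p below 0.05) and the median log2 difference was 0.14. Foxd1, the transcription factor of the stromal progenitors from which renin cells descend, differed by 0.43 ± 0.14 (SE, limma adjusted p = 0.155), and Tbx18, of vascular mesenchyme, by 0.19 ± 0.10 (SE, limma adjusted p = 0.418). The summed red signal of mural markers was 53551 to 64308 on WT2 to WT4 and 65215 to 80664 on KO2 to KO4, without overlap. Of 10 stromal markers, 5 rose and 0 fell, with a median of 0.50, among them Pdgfra (0.73 ± 0.11, SE, limma adjusted p = 0.00764), the PDGF receptor of fibroblasts, and Dcn (0.53 ± 0.09, SE, limma adjusted p = 0.0150), decorin. On the 6 arrays of low background the count was 3, with Penk, the opioid precursor, at a limma adjusted p of 0.0611 and Col1a1, a collagen chain, at 0.106, and the median was 0.49. The part of these stromal genes, and of the summed mural signal, in the Akr1b7 and Ren1 values was not tested.

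Of 11 nephron progenitor markers, 3 fell and 0 rose, with a median log2 difference of -0.17; on the 6 arrays of low background, 2 fell. Cited1, a coregulator that marks these progenitors, fell by 2.72 on the log2 scale (SE 0.10, limma adjusted p = 2.84e-08), Capn6, a calpain, by 0.98 (SE 0.11, limma adjusted p = 0.00157) and Itga8, the integrin that receives nephronectin, by 0.40 (SE 0.09, limma adjusted p = 0.0462). The call of Itga8 was lost without WT1 and KO1 (log2 difference -0.43, limma adjusted p = 0.0868). All 7 podocyte markers were tested, and Wt1, the zinc finger factor that progenitors share with podocytes, alone fell, by 0.40 (SE 0.09, limma adjusted p = 0.0354). Of 6 mast cell genes, which include a source of angiotensin-forming proteases, 3 were tested and 0 passed (limma; 2 at an unadjusted p below 0.05). Tpsb2, a mast cell tryptase, differed by 0.32 ± 0.10 (SE, limma adjusted p = 0.124) and Hdc, the histamine-forming enzyme, by 0.42 ± 0.16 (SE, limma adjusted p = 0.241). Kit, the remaining gene tested, differed by 0.04 (limma adjusted p = 0.934). Fcer1a and Ms4a2 were not well above background on any of the 6 arrays of low background, and Tpsab1 had no probe.

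Downstream of aldosterone, 8 of 10 listed response genes were tested and 0 passed (limma; 1 at an unadjusted p below 0.05), with a median of 0.13. Nedd4l, the ligase that removes epithelial sodium channels, differed by 0.30 ± 0.12 (SE, limma adjusted p = 0.246) and Per1, a clock gene, by 0.41 ± 0.21 (SE, limma adjusted p = 0.408). The other proteins of the proton pump that Atp6ap2 serves were listed as 22. Of these, 21 were tested and 0 passed (limma; 6 at an unadjusted p below 0.05), 17 of the 21 differences were positive, and the median was 0.08. Atp6v1g1 differed by 0.26 ± 0.08 (SE, limma adjusted p = 0.115) and Atp6v0e2 by 0.23 ± 0.08 (SE, limma adjusted p = 0.220), both with every KO array above every WT array. The Atp6ap2 difference of 0.29 was close in size to these 2, which were picked by smallest p, and larger than the list median. The median over all tested genes was 0.03.

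**Figure D5:**
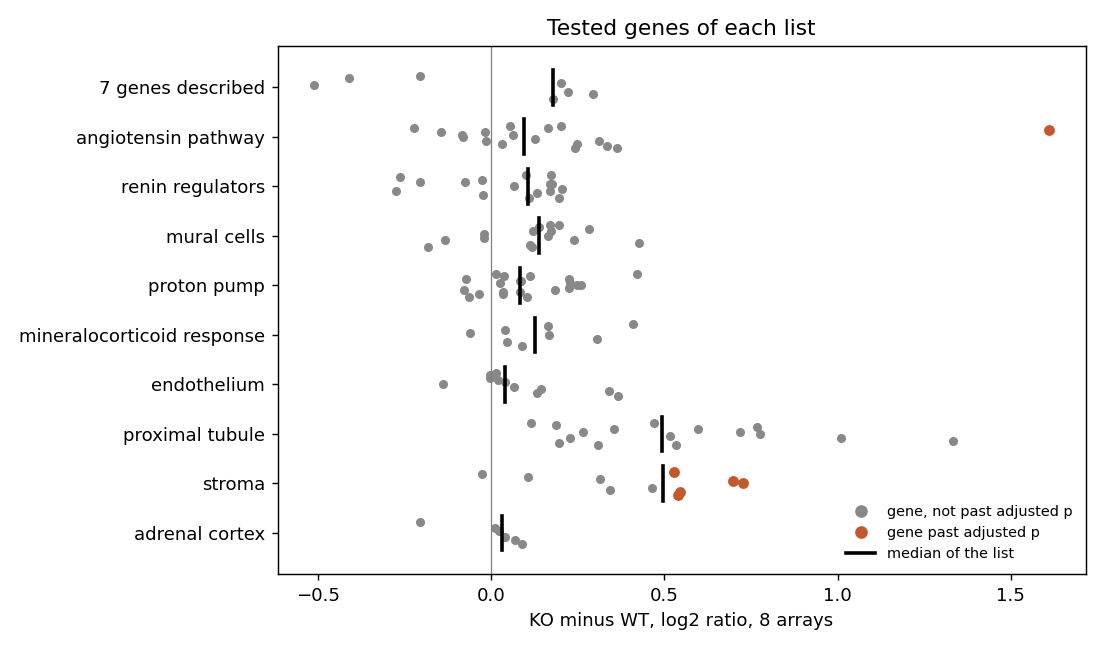
KO minus WT log2 difference over 8 arrays of each tested gene in 10 of the lists (grey points, orange where the adjusted p was below 0.05), with the median of each list as a black bar; the vertical line marks 0. All 16 proximal tubule genes lie above 0, and the medians run from 0.03 for adrenal cortex to 0.50 for stroma.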

How the data were processed

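Per the file headers, the authors read the scans with Agilent Feature Extraction 10.7.3.1. The deposited intensity columns used hold each spot's median signal and local background median in red and in green, on a linear scale. The deposited log10 ratio is that of the software's processed, dye-normalized red over green. The authors' value table held the same log10 ratios, within 0.497%, with a median of 0 per array. Other deposited columns are flags per spot.

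In R 4.3.3 with limma 3.58.1 (files read with version 1.17.8 of data.table), median signals were background-corrected (normexp, offset 50) and loess-normalized within arrays, with control spots at weight 0; the resulting log2 ratios had no step between arrays. Outlier readings (1765, or 0.372%) were left out, and 0 spots were saturated. Probes well above background in red on at least 4 of 8 arrays were kept, and the brightest kept probe stood for a gene. Names came from RefSeq (GRCm38.p6), by accession without version, for 27509 of 55681 probes. The headers name another build, so no gene coordinates are given except those of the RefSeq promoters. The 13987 genes were tested with lmFit and eBayes, Benjamini-Hochberg adjustment and a threshold of 0.05. For a single channel, red or green was quantile normalized. The test was checked on simulated data.

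The design text calls the samples biological replicates; their number limits the precision. Same-numbered WT and KO arrays, which share a slide column, had deviations correlated at 0.138 to 0.373. For 3 of 4 numbers a differently numbered array correlated more. The main test was not paired, and the numbers were used as pairs only in the replicate block, an alternative fit. The replicate block changed no call among the 7 genes, and it is given in the closing section because it moved the count over all genes.

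The 7 genes and all lists were chosen with earlier results of these data known. Genes named besides the 7 were, per list, up to 4 of the genes that passed, taken by smallest p, or up to 2 by smallest p where 0 passed, plus Dot1l and the genes whose pattern was most like Ren1. Akr1b3, Ttr, Col1a1, Fdx1, Kit, Ren2 and the undetected genes were chosen after their values were seen. Alternatives were other background, normalization, filter, probe and covariate choices, the red channel alone, and omission of arrays. Those that combine another choice with the omission of WT1 and KO1 were added after seeing the data.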

Additional observations from a re-analysis of the deposited data

How the results depend on the processing

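Ren1, Agt, Ace, Agtr1a, Agtr2 and Atp6ap2 did not pass the threshold under any alternative. The signs of Ren1 and Atp6ap2 held under all 26 alternatives, and the signs of Agt, Ace, Agtr1a and Agtr2 did not under the following. Red alone over all 8 arrays, which takes in the background of WT1 and KO1, reversed Agt (-0.52), Ace (-0.48), Agtr2 (0.33) and Akr1b7 (0.17). Red alone without WT1 and KO1 reversed Agtr1a (-0.071), and sex as a model term reversed Ace (-0.0671). Sex as a model term also gave Ren1 -0.84, Agt 0.09, Agtr1a 0.32 and Agtr2 -0.08 (limma adjusted p = 0.439, 0.84, 0.638 and 0.893). Akr1b7 passed the threshold without WT1 and KO1 (-0.66, limma adjusted p = 0.0307). On those 6 arrays it also passed with the replicate block (-0.66, limma adjusted p = 0.0237) and in red alone (-0.62, limma adjusted p = 0.0420). It did not pass there with Agilent's processed signals (-0.67, limma adjusted p = 0.0812), sex as a model term (-0.65, limma adjusted p = 0.22) or median centring (-0.71). Aquantile left the log2 ratios and thus every result unchanged, so it was no separate check. With all 8 arrays the replicate block gave -0.51 and a limma adjusted p of 0.0510. Omitting 1 array gave Ren1 -0.69 to -0.17, Agt 0.16 to 0.24, Ace 0.08 to 0.29 and Agtr1a 0.11 to 0.36. It gave Agtr2 -0.25 to -0.12, Akr1b7 -0.63 to -0.45 and Atp6ap2 0.18 to 0.35. Requiring signal above background on all 8 arrays left Agt, Agtr1a and Agtr2 without a value. Agilent's processed signals gave an Agt difference of 1.21, for a probe near background on 6 of 8 arrays.

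The count of genes called, 296, was 554 with the replicate block, 123 with Agilent's processed signals, 12 with sex as a term, 1 in red alone (109 at an unadjusted p below 0.05) and 0 with median centring (limma; 178 at an unadjusted p below 0.05). Omission of 1 array gave 83 to 345, and moved the count most for KO4 (83), WT4 (129), KO2 (140), WT2 (150) and WT1 (187). Without WT1 and KO1 it was 246, and then 519 with the replicate block, 139 in red alone, 65 with Agilent's processed signals, 10 with median centring and 6 with sex as a term. The causes were not tested.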

Other observations

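The adrenal medulla and sympathetic ganglia lie against the kidney, and 4 of 7 of their listed genes were tested. Pnmt, which makes adrenaline, fell by 0.57 on the log2 scale (SE 0.11, limma adjusted p = 0.0184), and its KO ratios (-0.31, -0.69, -0.70 and -0.79) were all below its lowest WT ratio of -0.11. Phox2a, a transcription factor of noradrenergic neurons, rose by 0.56 (SE 0.12, limma adjusted p = 0.0301), with KO ratios of 0.30, 0.87, 0.58 and 0.83 above the highest WT ratio of 0.11. Dbh and Hand2 were not well above background on any of the 6 arrays of low background.

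A probe named for Ren2, the second renin gene of other mouse strains, read differently from the Ren1 probe. Its log2 ratios were -0.49, -2.18, -2.12 and -2.63 on WT1 to WT4 and -0.86, -2.80, -1.68 and -2.41 on KO1 to KO4, so the normalized ratio was below 0 on all 8 arrays, WT1 included. In raw signal green was brighter than red on the 6 arrays of low background, and red was brighter on WT1 (13951 against 5371) and KO1 (6506 against 2574). The KO difference was -0.08 ± 0.45 (SE, limma adjusted p = 0.964). The 2 genes are close copies, so the identity of the RNA it bound is uncertain.

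The genes whose centred log2 ratios over the 8 arrays were closest to those of Ren1 were Rn4.5s, H4c12 and H4c4, with root mean square differences of 0.234, 0.250 and 0.255, against 0.495 for Ren1 about its own mean. Their KO differences were -0.41, -0.03 and -0.06, and none passed (limma adjusted p = 0.488, 0.979 and 0.949). H4c12 and H4c4 are histone H4 genes.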
